A study of Mus musculus with 8 samples.

Results

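Odorant receptor genes are read here in mature medullary thymic epithelial cells (mTEC) through the microarray probes whose gene name begins with Olfr. Members were chosen by detection: a probe was taken when the scanner software marked it well above background on all 3 arrays of Cdx1+/+ mTEC. The rule found 53 probes of 50 gene names, out of 1194 Olfr probes (1099 gene names) and 55681 probes in all, which is 4.44% of the Olfr probes. Each array held 1 pooled RNA sample of mice of mixed C57BL/6 and 129 background, in 4 groups. Cdx1-/- mTEC had 3 arrays and Cdx1+/+ mTEC had 3, each from a pool of 4 to 6 thymi, sorted as live CD45-negative cells positive for Epcam and the lectin UEA1 and high for CD80 and MHC class II. Small intestine epithelial cells (SIEC) had 1 array labelled Cdx1-/- and 1 labelled Cdx1+/+, each a pool of 3 mice, sorted as live Epcam-positive CD45-negative cells. Cdx1 encodes a homeobox factor that patterns the intestinal lining, and the series asks what its deletion does to ectopic transcription in mTEC. The labels name neither the age and sex of the mice nor the deleted part of Cdx1. Because the arrays are pools, the p-values measure the spread between pools, and fewer cells with a transcript cannot be told apart from less transcript per cell.

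Odorant receptors are G protein-coupled receptors of olfactory sensory neurons and form the largest gene family of the mouse genome, lying in clusters on most chromosomes. A sensory neuron typically expresses a single receptor allele, chosen with the help of EBF and LHX2 transcription factors, and signals through the G protein subunit Gnal, the adenylyl cyclase Adcy3 and the channel subunit Cnga2. Mature mTEC transcribe many genes that are otherwise restricted to single tissues, each in a small fraction of cells, and display the encoded proteins to developing T cells.

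The probes are 60 bases long, and odorant receptor genes resemble one another, so the sequences bear on which gene a signal belongs to. The probes of Olfr330 (chr11:58342539-58342598), Olfr328 (chr11:58364807-58364866) and Olfr331 (chr11:58315100-58315159), neighbours on mouse build mm9 as the files give it, are shown first, 5′ to 3′. Capitals mark a stretch identical to another of the 3 probes, of 38 bases for Olfr330 and Olfr328 and of 15 bases for Olfr331 with Olfr330. The probe of Olfr331 also matches that of Olfr330 outside its capitals.
Olfr330: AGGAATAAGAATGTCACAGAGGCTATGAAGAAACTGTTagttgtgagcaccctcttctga
Olfr328: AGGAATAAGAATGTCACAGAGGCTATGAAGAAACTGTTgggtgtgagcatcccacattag
Olfr331: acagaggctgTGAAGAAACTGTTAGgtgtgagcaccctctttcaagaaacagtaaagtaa
The probes of Olfr281 (chr15:98287592-98287651) and Olfr282 (chr15:98268769-98268828) share the 23 bases in capitals.
Olfr281: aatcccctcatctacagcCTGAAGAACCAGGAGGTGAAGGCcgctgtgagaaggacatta
Olfr282: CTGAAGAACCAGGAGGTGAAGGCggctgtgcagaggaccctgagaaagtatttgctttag
The probes of Olfr1136 (chr2:87533105-87533164), Olfr700 (chr7:113949329-113949388) and Olfr284 (chr15:98170587-98170646) carry the differences between genotypes described below, and those of Olfr544 (chr7:109632628-109632687) and Olfr1372-ps1 (chr11:51968398-51968457) gave the brightest signals.
Olfr1136: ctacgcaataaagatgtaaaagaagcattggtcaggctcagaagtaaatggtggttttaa
Olfr700: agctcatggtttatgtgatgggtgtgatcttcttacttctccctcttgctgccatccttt
Olfr284: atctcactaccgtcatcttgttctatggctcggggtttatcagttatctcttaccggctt
Olfr544: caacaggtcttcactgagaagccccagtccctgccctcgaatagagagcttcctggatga
Olfr1372-ps1: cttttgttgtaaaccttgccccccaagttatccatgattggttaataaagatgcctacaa
Of the 53 probes, 24 had a blastn match (word size 11, e-value limit 0.001) to the probe of another gene, and the closest was always another Olfr gene, and 7 had at least 45 identical bases with one (13.2%, against 15.2% of the other 1141 Olfr probes). Olfr330 and Olfr328 shared 50 of 53 aligned bases, and Olfr331 shared 39 of 41 with Olfr330. Olfr1382 shared 54 of 59 with Olfr1388, which is not among the 53. Signals of these genes may be mixed.

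A level here is the log2 signal of a probe minus that of its array's 75th percentile. The mTEC label was checked against 11 markers of mature mTEC, all detected on every mTEC array, and 8 of 8 SIEC markers were so on both SIEC arrays. Detection alone does not part the tissues: 7 of the 8 were also seen on all mTEC arrays, and 5 of the 11 on both SIEC arrays. Levels differed. As linear signal over the 75th percentile, the 8 summed to 1229 to 2031 in SIEC, 21.6 to 22.6 in Cdx1-/- and 30.7 to 35.2 in Cdx1+/+ mTEC. The 11 summed to 219 to 239 in SIEC, 710 to 978 in Cdx1-/- and 810 to 1132 in Cdx1+/+ mTEC. The Cdx1 probe read 4.80, 4.98 and 5.0 on the Cdx1-/- mTEC arrays, against 5.88, 5.90 and 5.96 on the Cdx1+/+ mTEC arrays. In SIEC it read 6.48 where the label is Cdx1-/- and 4.87 where it is Cdx1+/+, which is against the labels. The labels do not say whether the probe lies in the deleted part. Cdx1-/- mTEC replicate 1 shared its slide with both SIEC arrays, and the other 5 mTEC arrays shared another slide. No spot was saturated.

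Nearly all of the odorant receptor signals were dim. Over the 53 probes the mean level ran between -4.91 and 0.92 in Cdx1-/- mTEC with a median of -3.85, and between -4.60 and 1.06 in Cdx1+/+ mTEC with a median of -3.52. A level of -3 was not reached by 41 probes in Cdx1-/- and 39 in Cdx1+/+ mTEC. Olfr544, a class I receptor known to respond to azelaic acid and to be expressed in fat and liver, read 0.47, 1.20 and 1.09 on the Cdx1-/- mTEC arrays, against 0.94, 1.06 and 1.18 on the Cdx1+/+ mTEC arrays. Its genotypes overlapped, and its difference was -0.14 ± 0.20 on the log2 scale (SE, n = 3 each, limma adjusted p = 0.685). The transcribed pseudogene Olfr1372-ps1 read 0.60, 0.33 and 0.39 on the Cdx1-/- mTEC arrays, against 0.70, 0.51 and 0.52 on the Cdx1+/+ mTEC arrays. These genotypes overlapped too, and both probes lay above the 75th percentile of every mTEC array. The next highest Cdx1+/+ means were those of Olfr1136, Olfr1466, Olfr224, Olfr1368, Olfr373, Olfr1229, Olfr330 and Olfr700, between -2.14 and -1.45. These are signals of probes and give no ranking of transcripts.

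**Figure D1:**
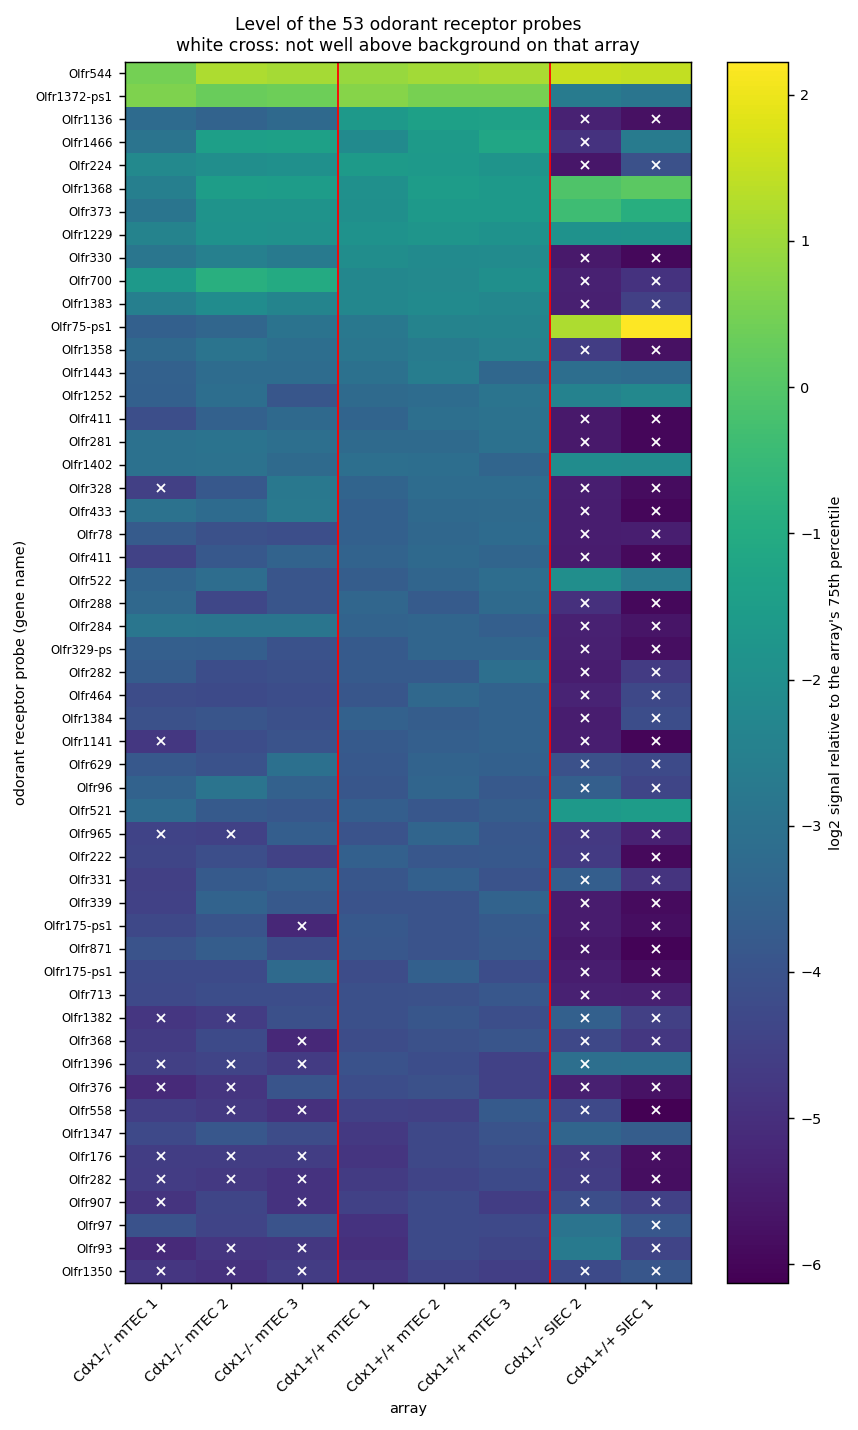
Level of each of the 53 odorant receptor probes (rows, by mean Cdx1+/+ mTEC level) on the 8 arrays (columns), as log2 signal minus the 75th percentile. White crosses mark arrays on which a probe was not well above background, and the 37 probes with a cross on both SIEC arrays make up most of the right-hand columns.

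Of the 50 genes, 3 had both of their probes among the 53. One probe of Olfr411 read -4.47, -3.84 and -3.46 on the Cdx1-/- mTEC arrays, against -3.48, -3.28 and -3.41 on the Cdx1+/+ mTEC arrays. Its other probe read -4.14, -3.52 and -3.28 in Cdx1-/- mTEC, against -3.44, -3.08 and -2.98 in Cdx1+/+ mTEC, so both had the lower mean in Cdx1-/- mTEC. These 2 probes cover nearly the same bases (chr11:74160149-74160208 and chr11:74160158-74160217), so they are not separate evidence. Of Olfr282, whose probes do not overlap in position, 1 was well above background on all 3 Cdx1-/- arrays and the other on none. The probes of Olfr175-ps1 were so on 3 and 2 of them, and these also cover nearly the same bases (chr16:58823828-58823887 and chr16:58823836-58823895). A further 8 genes, among them Olfr75-ps1, Olfr281, Olfr288 and Olfr373, had another probe outside the 53, and each of these 8 probes was well above background on no Cdx1+/+ array. The call for those genes rests on 1 of their 2 probes.

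The number of odorant receptor probes above background did not separate the genotypes. Over all 1194 Olfr probes, 63, 69 and 64 passed this flag on the Cdx1-/- mTEC arrays, against 97, 62 and 76 on the Cdx1+/+ mTEC arrays. The shares averaged 5.47% ± 0.27 in Cdx1-/- and 6.56% ± 1.48 in Cdx1+/+ mTEC (SD, n = 3 each), a difference of -1.09 percentage points (exact permutation test, 2-sided p = 0.4, smallest possible 0.1). The arrays overlapped, and Cdx1+/+ replicate 1 was the highest of all. Without it the difference was -0.31 points. Over all 55681 probes the shares were 57.3% in Cdx1-/- and 59.7% in Cdx1+/+ mTEC (exact p = 0.2). The 308 negative control spots passed the same flag 8, 4 and 4 times in Cdx1-/- and 1, 0 and 1 times in Cdx1+/+ mTEC, and none did so on all 3 arrays of a genotype.

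**Figure D2:**
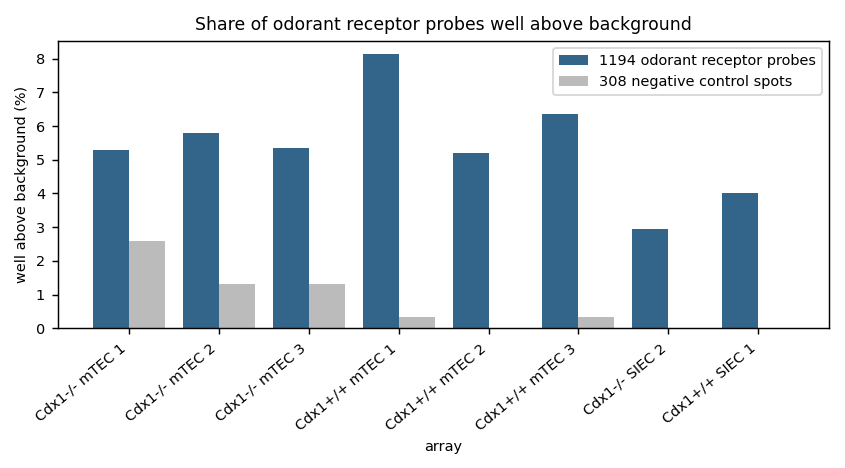
Share of the 1194 odorant receptor probes (blue) and of the 308 negative control spots (grey) that were well above background, in percent, on each array. The Cdx1-/- mTEC arrays lie between 5.28% and 5.78%, within the 5.19% to 8.12% of the Cdx1+/+ mTEC arrays, and the SIEC arrays at 2.93% and 4.02%.

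Most of the 53 probes were also seen in the Cdx1-/- genotype. On the Cdx1-/- mTEC arrays, 39 of 53 were well above background on all 3, 4 on 2, 5 on 1 and 5 on none, and of the other 1141 Olfr probes 2 were so on all 3. Since the rule asks for detection in Cdx1+/+ mTEC, some loss on the Cdx1-/- arrays is built in, and the genotype values of these probes are a description. The 5 probes seen on no Cdx1-/- array belong to Olfr176, Olfr1396, Olfr282, Olfr93 and Olfr1350, and all lie near the limit of detection. Olfr1396 read -4.55, -4.43 and -4.68 on the Cdx1-/- mTEC arrays, against -4.03, -4.17 and -4.51 on the Cdx1+/+ mTEC arrays. Its groups overlapped, with a difference of -0.32 ± 0.15 on the log2 scale (SE, n = 3 each, limma adjusted p = 0.204). For the 5 the bounds for Cdx1+/+ over Cdx1-/- ran between 1.08 and 1.25. For a bound, the Cdx1+/+ mean was divided by the Cdx1-/- mean with each array's value raised, where it was lower, to the dimmest signal still well above background on that array. No Cdx1-/- value of Olfr1396 or Olfr176 was low enough to be raised, so their bounds are plain ratios of means and no minimum.

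At the edge of the rule, the probes with the lowest Cdx1+/+ signal that met it were those of Olfr93 (-4.99, -4.26 and -4.37), Olfr97 (-4.89, -4.24 and -4.27) and Olfr1350 (-4.84, -4.41 and -4.56). Another 20 Olfr probes were well above background on 2 of the 3 Cdx1+/+ arrays, and the brightest of them, Olfr156, read -4.20, -4.78 and -4.37. The levels inside and outside the rule therefore meet.

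Across the 53 probes, 2 were higher and 5 lower in Cdx1-/- mTEC in limma's test at an adjusted p under 0.05, and 46 did not pass. Over all 33526 probes tested 10.5% passed, 5.19% higher and 5.29% lower, so the count of 7 of 53 is near that background. The median difference of the 53 was -0.30 on the log2 scale, against 0.0045 over all probes tested, with 42 values below 0 and 11 above. The genotypes did not overlap for 17 probes (3 higher, 14 lower in Cdx1-/-), where 36.4% of all tested probes did not (19.7% higher, 16.7% lower). When the same rule was applied to the Cdx1-/- arrays instead, it found 41 probes with a median of -0.16 and 3 higher and 5 lower calls. For the 39 probes that met both rules the median was -0.18.

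Olfr1136, an odorant receptor gene of the large chromosome 2 cluster, fell most among the 53. It read -3.20, -3.47 and -3.26 on the Cdx1-/- mTEC arrays, against -1.63, -1.38 and -1.33 on the Cdx1+/+ mTEC arrays. All Cdx1-/- arrays lay below all Cdx1+/+ arrays, and the difference was -1.86 ± 0.12 on the log2 scale (SE, n = 3 each, limma adjusted p = 0.00241), or 3.63-fold. It passed under all 16 alternative settings, with differences between -1.95 and -1.14. In SIEC the probe was not well above background, at -5.34 in SIEC labelled Cdx1-/- and -5.75 in SIEC labelled Cdx1+/+.

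Among the other lower probes, Olfr330 read -2.84, -2.50 and -2.69 on the Cdx1-/- mTEC arrays, against -2.04, -2.13 and -2.09 on the Cdx1+/+ mTEC arrays, a difference of -0.59 ± 0.11 on the log2 scale (SE, n = 3 each, limma adjusted p = 0.0239). The genotypes were apart, while the near-identical probe of Olfr328 read -4.53, -3.82 and -2.80 on the Cdx1-/- mTEC arrays, against -3.42, -3.16 and -3.18 on the Cdx1+/+ mTEC arrays and overlapped. The call for Olfr330 ended without any one Cdx1+/+ array or without Cdx1-/- replicate 1 or 3 (differences of -0.61 to -0.51, limma adjusted p of 0.0529 to 0.0732). The pseudogene Olfr75-ps1 read -3.56, -3.38 and -2.95 on the Cdx1-/- mTEC arrays, against -2.78, -2.38 and -2.37 on the Cdx1+/+ mTEC arrays, a difference of -0.79 ± 0.19 on the log2 scale (SE, n = 3 each, limma adjusted p = 0.0482). Its groups were apart, and the call ended without any one Cdx1+/+ array or without Cdx1-/- replicate 1 or 2 (-0.93 to -0.66, adjusted p of 0.0537 to 0.128).

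Olfr222 read -4.38, -4.12 and -4.47 on the Cdx1-/- mTEC arrays, against -3.55, -3.87 and -3.83 on the Cdx1+/+ mTEC arrays, a difference of -0.57 ± 0.14 on the log2 scale (SE, n = 3 each, limma adjusted p = 0.0461). Olfr1384 read -4.04, -3.91 and -4.09 on the Cdx1-/- mTEC arrays, against -3.55, -3.67 and -3.51 on the Cdx1+/+ mTEC arrays, a difference of -0.44 ± 0.10 on the log2 scale (SE, n = 3 each, limma adjusted p = 0.0368). In both genes the genotypes were apart. Both calls ended when any 1 of the 6 arrays was left out (-0.67 to -0.47 for Olfr222 and -0.49 to -0.40 for Olfr1384). With the replicate number as a block they also missed the threshold, at limma adjusted p of 0.0676 for Olfr222 and 0.0661 for Olfr1384.

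The higher probes were those of Olfr700 and Olfr284. Olfr700 read -1.62, -0.87 and -1.01 on the Cdx1-/- mTEC arrays, against -2.27, -2.18 and -1.97 on the Cdx1+/+ mTEC arrays, a difference of 0.97 ± 0.21 on the log2 scale (SE, n = 3 each, limma adjusted p = 0.0349). The genotypes were apart and Cdx1-/- replicate 1 was the nearest to the Cdx1+/+ arrays. Its call ended without any one Cdx1+/+ array or without Cdx1-/- replicate 2 or 3 (0.82 to 1.06, adjusted p of 0.0700 to 0.0950). Olfr284 read -2.84, -2.89 and -2.87 on the Cdx1-/- mTEC arrays, against -3.45, -3.39 and -3.60 on the Cdx1+/+ mTEC arrays, a difference of 0.61 ± 0.09 on the log2 scale (SE, n = 3 each, limma adjusted p = 0.0142), with groups apart. Its call was kept when any single array was left out. With normexp background correction, of these 7 calls only that of Olfr1136 was kept, and the difference of Olfr284 shrank to 0.15 (adjusted p = 0.596). With no filter on dim probes only Olfr1136 passed as well. With the slide as a block the calls of Olfr330, Olfr75-ps1, Olfr222 and Olfr1384 ended (limma adjusted p of 0.0547 to 0.108). The probe of Olfr700 shares 47 of 55 aligned bases with that of Olfr704.

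**Figure D3:**
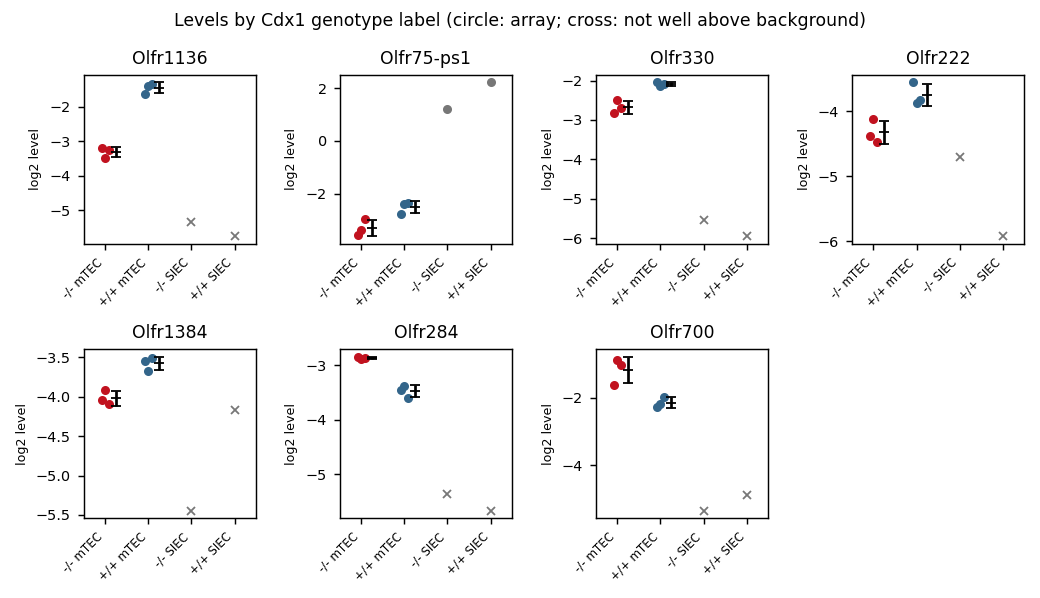
Log2 level (signal over each array's 75th percentile) of the 7 odorant receptor probes that passed the test between genotypes, with 1 point per array, the mean and SD beside the 3 mTEC arrays of each genotype, and a cross where a probe was not well above background. In each panel the 3 Cdx1-/- mTEC arrays lie wholly below (5 genes) or above (2 genes) the Cdx1+/+ mTEC arrays, and Olfr75-ps1 alone is well above background in SIEC.

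**Figure D4:**
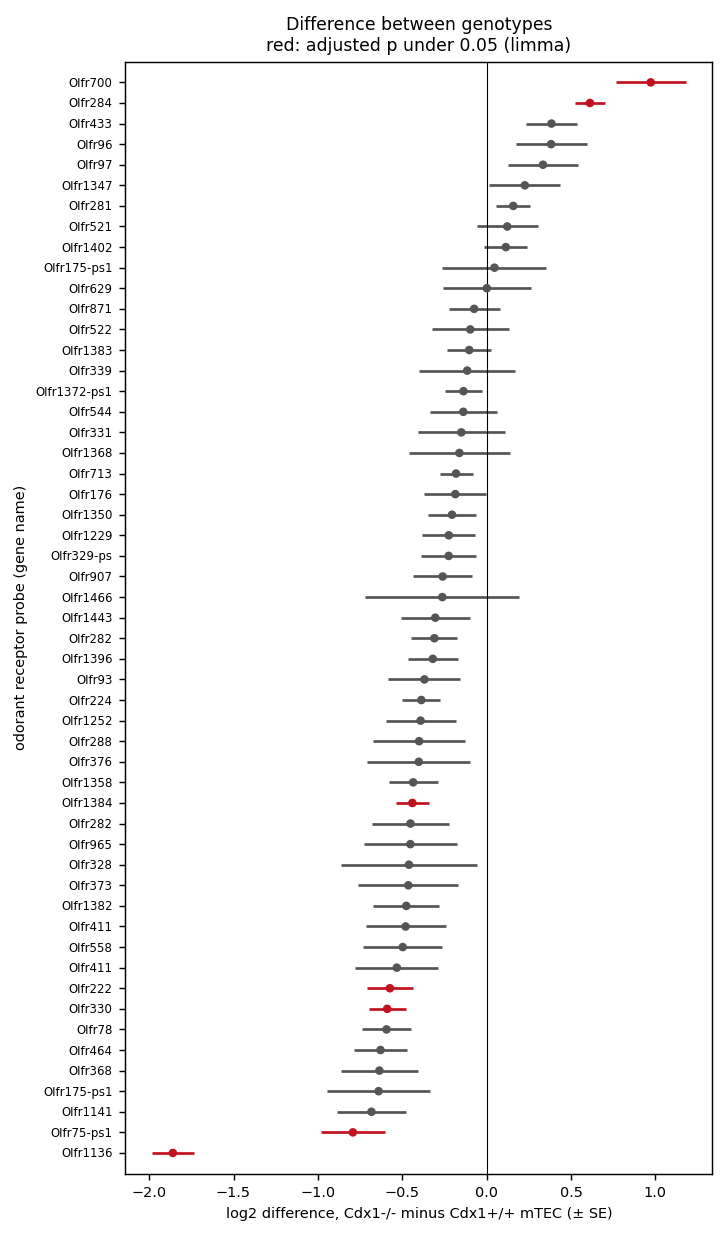
Difference in log2 level, Cdx1-/- minus Cdx1+/+ mTEC, for the 53 odorant receptor probes, with the SE of limma as lines (n = 3 each) and the 7 probes past an adjusted p of 0.05 in red. Values run between -1.86 for Olfr1136 and 0.97 for Olfr700, with 42 of 53 below 0.

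Among the 46 probes that did not pass, known ectopic receptors were included. Olfr78, a class I receptor described for short-chain fatty acids in kidney and blood vessels, read -3.74, -4.06 and -4.12 on the Cdx1-/- mTEC arrays, against -3.58, -3.35 and -3.21 on the Cdx1+/+ mTEC arrays. Its groups were apart, with a difference of -0.59 ± 0.15 on the log2 scale (SE, n = 3 each, limma adjusted p = 0.0504), just short of the threshold. Olfr558, a class I receptor of the same cluster, was well above background on 1 of 3 Cdx1-/- arrays and read -4.57, -4.74 and -4.98 on the Cdx1-/- mTEC arrays, against -4.51, -4.53 and -3.75 on the Cdx1+/+ mTEC arrays. Cdx1-/- replicate 1 stood apart from replicates 2 and 3 for several probes. Olfr1466 read -2.92, -1.41 and -1.37 on the Cdx1-/- mTEC arrays, against -2.14, -1.57 and -1.20 on the Cdx1+/+ mTEC arrays, Olfr1368 read -2.53, -1.48 and -1.50 on the Cdx1-/- mTEC arrays, against -1.93, -1.51 and -1.59 on the Cdx1+/+ mTEC arrays, and Olfr373 read -2.89, -1.84 and -1.83 on the Cdx1-/- mTEC arrays, against -1.96, -1.60 and -1.61 on the Cdx1+/+ mTEC arrays. In these 3 genes replicate 1 was the lowest Cdx1-/- array and replicate 1 was also the lowest Cdx1+/+ array. Within slide 1, which leaves out that replicate, the median difference of the 53 probes was -0.19, with 2 higher and 2 lower calls.

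Outside the 53, 4 further Olfr probes passed the test. Olfr1370 and Olfr46 were lower in Cdx1-/- mTEC (limma adjusted p = 0.00297 and 0.00817), where neither was well above background on any array, and no fold is given because the lowest detectable signal there was above their Cdx1+/+ mean. Olfr156 (a log2 difference of 0.65) and Olfr609 (0.59) were higher. Olfr156 passed in 4 of 15 alternatives, missing the threshold with the replicate block (limma adjusted p = 0.0637) and without any array except Cdx1+/+ replicate 1 (0.49 to 0.69). Olfr609 passed in 5 of 12 alternatives, its call ended without any one Cdx1+/+ array or without Cdx1-/- replicate 3 (0.52 to 0.65), it did not pass the filter without Cdx1-/- replicate 1 or 2, and its difference turned to -0.045 with normexp background correction.

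Most of the 53 probes were not well above background in small intestine. There 12 were well above background on both SIEC arrays, 4 on 1 and 37 on neither, while 1.23% of the other Olfr probes and 41.5% of all probes were so on both. Each genotype label has 1 SIEC array, so no test between tissues was made. The SIEC mean lay below the Cdx1+/+ mTEC mean in 39 of 53 probes, in 45 with no scaling, in 34 with the authors' scaling and in 35 after quantile scaling. Scaling moves all probes in this comparison: the median of all probes, SIEC minus Cdx1+/+ mTEC, was 1.0 with the 75th percentile, -0.07 with none, 1.49 with the authors' scaling and 0.23 with quantiles. Of the 37 probes not well above background in SIEC, 23 had a bound of 1.03-fold or more for Cdx1+/+ mTEC over SIEC. Of these 6 reached 2-fold, namely Olfr1136 (at least 5.06-fold), Olfr224 (4.38), Olfr330 (3.26), Olfr700 (3.13), Olfr1383 (2.98) and Olfr1358 (2.19). The bounds depend on the scaling: 22 reached 2-fold with no scaling, 5 with the authors' scaling and 5 after quantile scaling. The bound of Olfr1358 was 1.57 with the authors' scaling and 1.61 after quantile scaling.

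Olfr224 passed the flag on the mTEC arrays and on neither SIEC array, with -2.20, -2.0 and -1.94 on the Cdx1-/- mTEC arrays, against -1.57, -1.61 and -1.79 on the Cdx1+/+ mTEC arrays. Its SIEC values were -5.61 in SIEC labelled Cdx1-/- and -4.04 in SIEC labelled Cdx1+/+, neither well above background. The reverse held for the member probe of Olfr75-ps1, which read 1.21 in SIEC labelled Cdx1-/- and 2.23 in SIEC labelled Cdx1+/+, above every mTEC array. The other probe of Olfr75-ps1 was well above background on neither SIEC array, so the SIEC signal rests on 1 of 2 probes. Olfr1372-ps1 read -2.65 in SIEC labelled Cdx1-/- and -2.87 in SIEC labelled Cdx1+/+, below every mTEC array though well above background on both. Olfr544 read 1.53 in SIEC labelled Cdx1-/- and 1.46 in SIEC labelled Cdx1+/+, above all mTEC arrays at this scaling.

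The other probes seen on both SIEC arrays were those of Olfr1368, Olfr373, Olfr1443, Olfr1229, Olfr1252, Olfr1402, Olfr1347, Olfr521 and Olfr522. Olfr1368 read -0.09 in SIEC labelled Cdx1-/- and 0.14 in SIEC labelled Cdx1+/+. Olfr521 read -1.62 in SIEC labelled Cdx1-/- and -1.52 in SIEC labelled Cdx1+/+, against -3.21, -3.75 and -3.85 on the Cdx1-/- and -3.64, -3.86 and -3.67 on the Cdx1+/+ mTEC arrays. Olfr1229 read -1.86 in SIEC labelled Cdx1-/- and -1.84 in SIEC labelled Cdx1+/+, which is level with its mTEC values of -2.40, -1.87 and -1.89 in Cdx1-/- and -1.87, -1.76 and -1.87 in Cdx1+/+ cells.

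By position, the detected probes were spread unevenly over the odorant receptor clusters. Of the 53 probes 51 have a position in mm9, and 4.30% of the 1185 Olfr probes with a position were among them. Olfr probes were joined into clusters where neighbours lay within 1 Mb, which gave 49 clusters, 29 of them with at least 5 probes. Of these 29, 18 held at least 1 of the 53 and 11 held none over 225 probes. Chromosome 11 had 15 of 87 Olfr probes (17.2%), chromosome 7 had 10 of 257 (3.89%) and chromosome 2 had 6 of 303 (1.98%), while chromosomes 4, 6, 14 and X had none. Membership was fixed by the detection rule, so the shares are a description without a test.

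The highest share among clusters of 5 or more probes was that of chr15:98016448-98328803, Olfr288 to Olfr279, with 5 of 12 probes (41.7%) of Olfr288, Olfr284, Olfr282 and Olfr281. Their directions between genotypes differed. Olfr281 read -3.0, -2.94 and -3.09 on the Cdx1-/- mTEC arrays, against -3.24, -3.25 and -3.02 on the Cdx1+/+ mTEC arrays, which overlapped. Olfr288 read -3.29, -4.33 and -3.92 on the Cdx1-/- mTEC arrays, against -3.37, -3.74 and -3.24 on the Cdx1+/+ mTEC arrays, which overlapped too, while Olfr284 was higher in Cdx1-/- mTEC as given above. None of the 5 probes was well above background in SIEC.

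The cluster at chr11:58268658-59427239, Olfr30 to Olfr225, held 6 of 25 probes (24%), those of Olfr331, Olfr330, Olfr329-ps, Olfr328, Olfr224 and Olfr222. All 6 had a lower mean in Cdx1-/- than in Cdx1+/+ mTEC, and 2 of them, Olfr330 and Olfr222, passed the test. The probes of Olfr331, Olfr330 and Olfr328 resemble one another, so the 6 are not separate readings. Olfr331 read -4.53, -3.75 and -3.61 on the Cdx1-/- mTEC arrays, against -3.89, -3.55 and -4.0 on the Cdx1+/+ mTEC arrays, and Olfr329-ps read -3.60, -3.61 and -4.03 on the Cdx1-/- mTEC arrays, against -3.76, -3.40 and -3.41 on the Cdx1+/+ mTEC arrays, both with overlap. The cluster at chr7:6393483-6523390, Olfr1344 to Olfr1350, held 2 of 8 (25%), Olfr1347 and Olfr1350. The one at chr11:48926330-49377519, Olfr1396 to Olfr1380, held 4 of 19 (21.1%), Olfr1396, Olfr1384, Olfr1383 and Olfr1382. In contrast the largest cluster, on chromosome 2 between Olfr987 and Olfr1273-ps, held 4 of 233 (1.72%), and the chromosome 7 cluster of class I receptors between Olfr543 and Olfr692 held 4 of 141 (2.84%), Olfr544, Olfr558, Olfr78 and Olfr629.

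**Figure D5:**
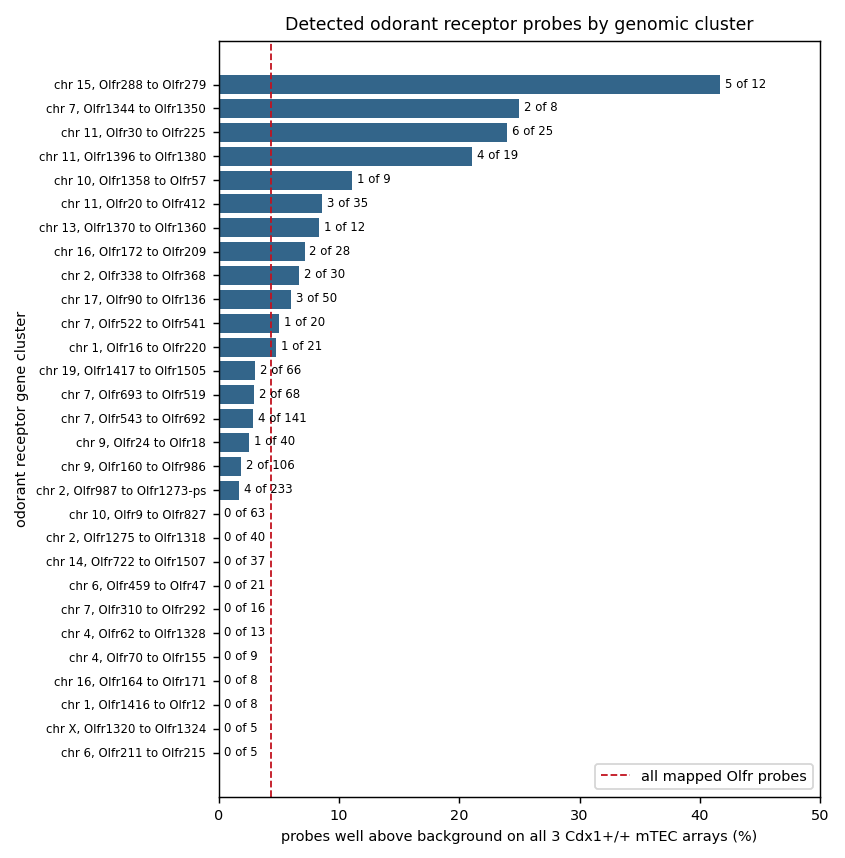
Percent of odorant receptor probes that were well above background on all 3 Cdx1+/+ mTEC arrays, for the 29 clusters with at least 5 probes, named by chromosome and by first and last gene, with counts beside the bars. The dashed line is the 4.30% of all mapped probes, and the top 4 clusters, on chromosomes 15, 7 and 11, lie between 21.1% and 41.7%.

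The detected genes lay beside one another more often than the other genes did, which is given without a test. Of the 46 member genes with another odorant receptor gene within 1 Mb, 12 (26.1%) had one of the 50 genes directly beside them, compared with 67 of 1036 other Olfr genes (6.47%). Without the 7 probes that share at least 45 bases with another gene's probe the shares were 15.4% (6 of 39) and 5.85%. The nearest gene that is not an odorant receptor was well above background on all 3 Cdx1+/+ arrays for 30 of 51 probes (58.8%), against 411 of 1134 other Olfr probes (36.2%). Over all 55681 probes 56% were so, which is near the share of the 51. This gene lay at a median of 49177 bp against 79540 bp. Vomeronasal, bitter taste and trace amine receptor probes were left out as neighbours, and unnamed transcripts were kept. Some neighbours count more than once, as Gm9385 does for Olfr331, Olfr330, Olfr329-ps and Olfr328. Olfr222 lies 4320 bp from a probe of Nlrp3, the inflammasome sensor, and Olfr1396 lies 15928 bp from one of Ifi47, an interferon-induced GTPase. Median GC content of the probes was 45% for the 53, 40% for the other Olfr probes and 43.3% for all probes, and its part in detection was not tested.

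Gene models and promoters were taken from RefSeq (GRCm38.p6). A gene span above 2000 bp was found for 13 of 49 matched member genes (26.5%) and 139 of 1046 other Olfr genes (13.3%), among the 13 Olfr1358, Olfr330, Olfr544 and Olfr78. Promoters, from 250 bases before to 50 after the start, matched for 41 member genes and 903 other Olfr genes. Their median GC content was 43% for the members, 35% for the other Olfr genes and 52.7% for all 27025 promoters. The EBF core CCCNNGGG, which reads the same on both strands, was present in 14.6% of member promoters, 2.55% of other Olfr promoters and 13.4% of all promoters. The homeodomain core TAATTA was present in 7.32%, 19.2% and 5.31% of the same sets. TTTATNG, a CDX-type motif searched on both strands, was present in 22%, 22.5% and 11.3%, and TATAAA on both strands in 26.8%, 41.7% and 14.2%. A TTTATAG counts under both of these motifs. Each window is set by the annotated start, and the median gene span was only 975 bp for the members and 948 bp for the other Olfr genes. Whether an annotated start is where transcription begins was not tested. The parts of GC content and of gene span in these shares were not tested.

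The promoters of Olfr330 (chr11:58534776-58535075, minus strand) and Olfr1136 (chr2:87693898-87694197, minus strand) are shown because both genes were lower in Cdx1-/- mTEC, with the EBF core match of Olfr330 in capitals. None of the 4 motifs was found in the window of Olfr1136, and neither window holds TTTATNG. The gene model of Olfr1136 spans 1067 bp, and whether its annotated start is where transcription begins was not tested. The lack of a motif therefore describes this window and may not describe the promoter of the gene.
Olfr330: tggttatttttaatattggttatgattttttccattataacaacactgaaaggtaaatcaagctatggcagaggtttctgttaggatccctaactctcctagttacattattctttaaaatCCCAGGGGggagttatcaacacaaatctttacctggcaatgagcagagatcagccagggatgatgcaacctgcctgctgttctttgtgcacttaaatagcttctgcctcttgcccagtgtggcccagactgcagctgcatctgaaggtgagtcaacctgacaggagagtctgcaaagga
Olfr1136: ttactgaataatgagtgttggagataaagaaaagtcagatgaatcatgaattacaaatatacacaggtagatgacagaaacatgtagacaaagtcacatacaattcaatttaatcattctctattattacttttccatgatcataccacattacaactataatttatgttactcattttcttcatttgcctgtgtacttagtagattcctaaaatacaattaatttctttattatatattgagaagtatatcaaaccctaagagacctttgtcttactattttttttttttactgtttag

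Genes that work with odorant receptors were examined as a list of 42, of which 41 have a probe and 38 were tested. In Cdx1-/- mTEC 2 were higher and 5 lower, 31 did not pass, and the median difference was -0.05, where 10.5% of all probes passed. Many of them were well above background in mTEC: 38 of the 41 on all 3 Cdx1+/+ arrays, including the olfactory marker protein Omp, which read 4.25, 4.09 and 4.16 on the Cdx1-/- mTEC arrays, against 4.14, 4.11 and 3.93 on the Cdx1+/+ mTEC arrays. Rtp1, a receptor transport protein, was so on 1 Cdx1+/+ array, and Emx2 and Ncam2 on none.

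Gnal, the G protein subunit that odorant receptors couple to, read -2.09, -2.47 and -2.37 on the Cdx1-/- mTEC arrays, against -1.37, -1.61 and -1.01 on the Cdx1+/+ mTEC arrays. The groups were apart, with a difference of -0.98 ± 0.18 on the log2 scale (SE, n = 3 each, limma adjusted p = 0.0227), and the call ended without Cdx1+/+ replicate 1 or 3 or Cdx1-/- replicate 2 or 3 (-1.0 to -0.82). Gnal lies on chromosome 18, as does Cdx1, and the mice were of mixed strain background. The part of strain sequence linked to Cdx1 in this difference was not tested. Ebf1, a transcription factor of the EBF family, read -1.34, -1.20 and -1.38 on the Cdx1-/- mTEC arrays, against -0.73, -0.66 and -0.64 on the Cdx1+/+ mTEC arrays, a difference of -0.63 ± 0.09 on the log2 scale (SE, n = 3 each, limma adjusted p = 0.0129) that was kept when any single array was left out. Its relative Ebf3 read -2.12, -2.18 and -2.08 on the Cdx1-/- mTEC arrays, against -1.62, -1.54 and -1.23 on the Cdx1+/+ mTEC arrays, a difference of -0.66 ± 0.12 on the log2 scale (SE, n = 3 each, limma adjusted p = 0.0226) that ended without any array except Cdx1+/+ replicate 1 (-0.70 to -0.55). Neither factor was well above background in SIEC, at -5.52 in SIEC labelled Cdx1-/- and -5.81 in SIEC labelled Cdx1+/+ for Ebf1.

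Gucy2d, the guanylyl cyclase of a separate class of sensory neurons, read -0.59, -0.48 and -0.32 on the Cdx1-/- mTEC arrays, against 0.26, 0.35 and 0.45 on the Cdx1+/+ mTEC arrays, a difference of -0.81 ± 0.11 on the log2 scale (SE, n = 3 each, limma adjusted p = 0.0104) found under all 16 alternatives. Cnga3, the channel subunit of those same neurons, was in contrast higher, at -1.36, -1.41 and -1.33 on the Cdx1-/- mTEC arrays, against -2.12, -1.93 and -1.90 on the Cdx1+/+ mTEC arrays, a difference of 0.62 ± 0.10 on the log2 scale (SE, n = 3 each, limma adjusted p = 0.0152) that ended with normexp background correction (0.44). Umodl1, first described in olfactory and vomeronasal tissue, differed by -0.53 ± 0.09 on the log2 scale (SE, n = 3 each, limma adjusted p = 0.0197) and missed the threshold in 5 of the 6 fits without 1 array. Ldb1, the cofactor of LHX2, differed by 0.34 ± 0.08 on the log2 scale (SE, n = 3 each, limma adjusted p = 0.0464), and its call ended with the replicate block (adjusted p = 0.0661) and without any single array. Atf5, a factor of the feedback that stabilises receptor choice, differed by -0.30 ± 0.08 on the log2 scale (SE, n = 3 each, limma adjusted p = 0.057). Of the 7 calls in this list, those of Ebf3, Umodl1 and Ldb1 ended with the slide as a block (limma adjusted p of 0.0525 to 0.0756), and with no filter on dim probes only that of Gucy2d was kept. The signalling components Adcy3, Cnga2 and Cngb1 did not pass, with Adcy3 at -3.35, -3.32 and -3.37 in Cdx1-/- and -3.66, -3.43 and -3.57 in Cdx1+/+ mTEC.

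Of 10 markers of olfactory sensory neurons, 9 passed the detection flag on all mTEC arrays. Their summed level, as linear signal over the 75th percentile, was 34.6 to 36.8 in Cdx1-/- mTEC, 29.7 to 33.4 in Cdx1+/+ mTEC and 1.65 to 3.48 in SIEC, with Omp and Gng13 the brightest, and of the 9 tested 2, Gnal and Ebf1, were lower and none higher. The 5 B cell markers summed to 11.99 to 13.4 in Cdx1-/- and 8.60 to 9.54 in Cdx1+/+ mTEC, with 2 higher. The 8 thymocyte markers summed to 13.3 to 17.6 in Cdx1-/- and 14.1 to 20.3 in Cdx1+/+ mTEC with 1 lower, and 6 markers of dendritic cells and macrophages to 24.8 to 27.1 in Cdx1-/- and 22.7 to 24.4 in Cdx1+/+ mTEC with 1 higher and 1 lower. Thymocytes, B cells, dendritic cells and macrophages carry CD45, and the sort kept CD45-negative cells. The 5 mesenchyme markers summed to 15.2 to 18.1 in Cdx1-/- and 16.5 to 19.5 in Cdx1+/+ mTEC, with 1 lower. The 4 red cell markers summed to 14.7 to 16.9 in Cdx1-/- and 15.5 to 16.7 in Cdx1+/+ mTEC, with 1 lower. The 4 endothelium markers summed to 1.59 to 2.72 in Cdx1-/- and 2.36 to 3.34 in Cdx1+/+ mTEC. The 5 cortical epithelium markers summed to 188 to 253 in Cdx1-/- and 139 to 179 in Cdx1+/+ mTEC, without overlap, and to 311 to 319 in SIEC. None of these 5 passed the test. Ccl25 was the brightest of them, with a mean level of 7.65 in Cdx1-/- and 7.13 in Cdx1+/+ mTEC. Over all 33526 probes tested 5.19% were higher and 5.29% lower, and these lists are too short to set their counts against those shares. The part of any of these cells in the odorant receptor signals was not tested.

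Other chemosensory receptor families were detected sparsely too. On all 3 Cdx1-/- arrays 41 of 1194 Olfr probes were well above background, against 53 on all 3 Cdx1+/+ arrays and 26 on both SIEC arrays. For the vomeronasal family Vmn1r the counts were 15, 15 and 4 of 175 probes, for Vmn2r 3, 4 and 2 of 122, for the bitter taste receptors Tas2r 3, 2 and 2 of 37, and for the trace amine-associated receptors Taar 1, 1 and 0 of 15. Across all 55681 probes 54.1% were so on all 3 Cdx1-/- arrays, 56% on all 3 Cdx1+/+ arrays and 41.5% on both SIEC arrays.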

How the data were processed

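Arrays were 1-colour (Cy3) Agilent arrays. The deposited scanner files hold linear intensity per spot from Agilent Feature Extraction 10.7.3.1, background-subtracted within each array, per the file headers. Whether a spot is well above background is the software's flag in the deposited files. The deposited table of normalized signal is each array's processed intensity times a constant with a median of 1, found by comparing it with the scanner files, and served as an alternative.

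From these files, outlier-flagged spots were dropped, log2 intensities were set relative to each array's 75th percentile, and replicate spots were averaged. A probe counted as well above background when at least 50% of its usable spots did. Genotypes were compared with limma 3.58.1 in R 4.3.3 on the 6 mTEC arrays, over 33526 probes well above background on at least 2 of 3 arrays of 1 genotype, 2-sided, with Benjamini-Hochberg adjustment over all of them and a threshold of 0.05. The fit was tested on simulated data with independent noise on each array. The simulation held no slide or replicate effect, so it does not bear on those. Positions are mm9, per the file headers. RefSeq names, spans and promoters are of GRCm38.p6. Probes were aligned to each other with blastn 2.17.0. Tables and plots used pandas 2.3.3 and matplotlib 3.10.9.

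Replicate numbers come from the sample titles. Deviations of same-numbered mTEC arrays from their group means correlated by 0.295, 0.135 and 0.158, and those of differently numbered arrays by -0.205 to 0.032. The labels do not say that the numbers pair the arrays. The main fit leaves the number out, and an alternative fit took it as a block. The number of arrays limits the precision. The members, gene lists and tests were chosen with earlier results of these data known. Named were the 10 members of highest signal, those past the threshold, those seen on no Cdx1-/- array, up to 10 seen in SIEC, genes with more than 1 probe, members of the 3 clusters of highest share, members at the edge of the rule and 8 list genes of smallest p. Others were chosen after their values were seen.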

Additional observations from a re-analysis of the deposited data

How the results depend on the processing

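The direction of the median difference of the 53 odorant receptor probes held under every alternative run, between -0.34 and -0.14. Detection in Cdx1+/+ mTEC chose the probes, which favours a negative median, and most alternatives reuse the same probes. The kept sign is therefore a description and no support for a fall. With probes chosen on the 3 Cdx1-/- arrays instead the median was -0.16. Counts of calls moved more. Over all probes 3514 passed, against 716 with no filter on dim probes, 1899 with normexp background correction, 1767 with slide as a block, 1881 within slide 1 and 1083 to 1881 with 1 array left out. Among the 53 probes 7 passed, against 1 with no filter, 1 with normexp, 4 with slide as a block, 4 within slide 1 and 2 to 4 with 1 array left out. Of the list of genes that work with the receptors 7 passed, against 1 with no filter, 4 with normexp, 4 with slide as a block, 4 within slide 1 and 3 to 5 with 1 array left out. With an array left out fewer samples remain. The cause of the other changes was not tested. With the software's weaker flag (signal positive and significant) 170 Olfr probes met the rule in place of 53, and 79 of them were seen on both SIEC arrays in place of 12. Of the 37 probes not well above background in SIEC, 23 had a bound of at least 1 for Cdx1+/+ mTEC over SIEC, against 37 with no scaling, 9 with the authors' scaling and 10 after quantile scaling, and 6 reached 2-fold, against 22 with no scaling. These scalings of the bounds were chosen after seeing the data. With 1 array left out the rule found 53 to 69 probes. With the replicate block 5 of the 53 passed (2 higher, 3 lower), and beyond the calls of Olfr222, Olfr1384, Ldb1 and Olfr156 the block changed no call of a named gene. Olfr609, outside the 53, turned to -0.045 with normexp. Without the 7 members whose probes are close to that of another gene, an alternative chosen after seeing the data, the median was -0.24. The difference in the share of Olfr probes kept its sign in all of its alternatives. Signal close to background limits these values: 41 and 39 of the 53 probes lay below a level of -3 in Cdx1-/- and Cdx1+/+ mTEC.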
